A study of Mus musculus with 4 samples.

Results

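The 10 genes described here, Vwf, Mmrn1, Pf4, Selp, Gp1bb, Gp9, Itga2b, F2r, Sdpr and Nfe2, belong to the megakaryocyte and platelet programme, and several of them also mark platelet-biased stem cells. They were chosen by symbol out of 24016 gene symbols in the count tables, taking for each symbol its most counted transcript summed over the 4 libraries, and all 10 were found and passed the filter on low counts. RNA was sequenced from hematopoietic stem cells of bone marrow from C57BL/6 mice aged 4 months, sorted as lineage-negative, Sca-1+, c-Kit+, CD34-, Flt3- and CD150+ cells. The NHD13 group had 2 libraries, from mice with the NHD13 transgene, a fusion of NUP98 and HOXD13 that Vav regulatory elements drive in blood cells and that models myelodysplastic syndrome. WT, for wild type, also had 2 libraries, and strain, age and sort were the same in both groups. Whether libraries come from single mice, separate mice or pools is not in the labels, so SDs and p-values measure the spread between libraries, which may be technical.

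Megakaryocytes are the marrow cells that shed platelets. Platelets carry alpha granules filled with adhesive and signalling proteins, a receptor complex that catches von Willebrand factor, an integrin that binds fibrinogen and receptors for thrombin. A share of mouse stem cells already transcribes some of these genes, Vwf among them, and such cells are biased towards making platelets. Several of the genes, including Vwf, Mmrn1, Selp and F2r, are active in endothelium as well.

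Depth, at 1 transcript per gene, was 35025974 and 48423689 counts in NHD13 and 42664018 and 37070939 counts in WT. Hoxd13, a partner gene of the transgene, had 65 and 78 counts in NHD13 against 14 and 3 counts in WT, with an adjusted p of 0.0893 by edgeR and 0.0162 by DESeq2; how reads of a human fusion align to the mouse gene was not measured. The stem cell markers Procr, Slamf1, Mecom and Kit were present in every library, with Procr at 105 to 155 CPM (counts per 1000000 counts) and Kit at 991 to 1271 CPM. They are not typical of the 14 stem cell markers tested, 12 of which lay below 0 on the log2 scale (median -1.09). By edgeR at an adjusted p under 0.05, 5 of the 14 fell, namely Hlf, Ctnnal1, Hoxb5, Ndn and Mllt3. Of all 14853 genes tested, 7407 lay below 0 and 2.22 percent fell.

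Multimerin 1, Sdpr and Gp9 transcripts were lower in NHD13 stem cells and F2r transcripts were higher, while Vwf, Pf4, Selp, Gp1bb, Itga2b and Nfe2 did not pass the test. Of the 10 genes 3 fell and 1 rose by edgeR's quasi-likelihood test at a Benjamini-Hochberg adjusted p under 0.05, where 2.22 percent of the 14853 genes tested fell, 2.07 percent rose and 4.28 percent did either. limma-voom also called 3 lower and 1 higher, with a background of 4.17 percent in either direction, and DESeq2 called 3 lower and 2 higher, with a background of 17.5 percent. An unadjusted p under 0.05 was given by edgeR to 5 of the 10 genes and to 26.8 percent of all genes tested. The median log2 fold change, NHD13 over WT, was -0.28 over the 10 genes and 0.00 over all genes tested. The 2 NHD13 libraries lay wholly above or wholly below the 2 WT libraries in 7 of the 10 genes, 3 above and 4 below, and in 60.4 percent of all genes tested, so that count is near the background. Summed over the 10 genes, the level was 1203 and 1554 CPM in NHD13 against 2469 and 2750 CPM in WT. Mmrn1 alone made up 6.15 and 10.2 percent of that sum in NHD13 and 49.7 and 54.2 percent in WT, and without Mmrn1 the sums were 1129 and 1396 CPM in NHD13 against 1242 and 1260 CPM in WT. In sorted bulk cells, fewer cells that transcribe a gene and less RNA per cell cannot be told apart.

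**Figure D1:**
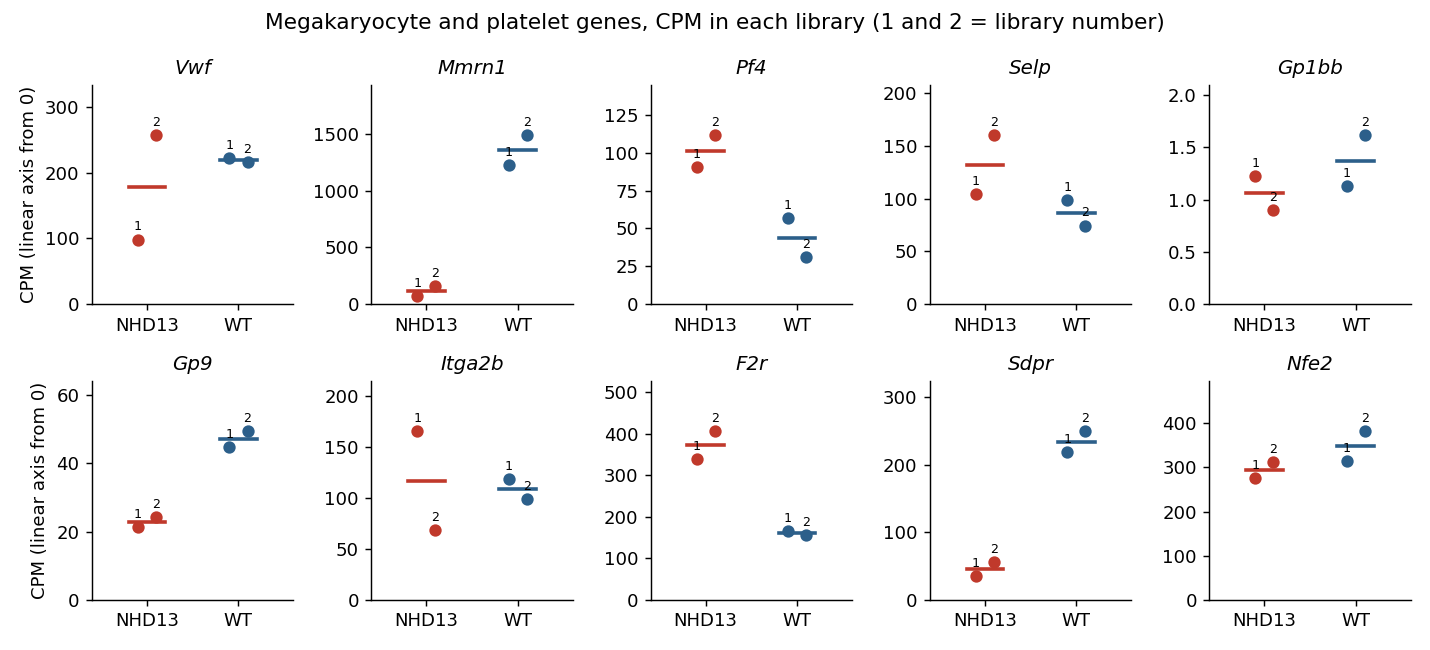
CPM of the 10 genes in each library on linear axes that start at 0, NHD13 libraries (red) left of WT libraries (blue); points are libraries, numbered 1 and 2, and lines are group means. Mmrn1, Sdpr and Gp9 sit lower in both NHD13 libraries, F2r sits higher in both, and the 2 NHD13 libraries of Vwf (98.3 and 257 CPM) lie on either side of the WT libraries.

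The largest difference among the 10 genes was in Mmrn1, which encodes multimerin 1, a large protein of alpha granules that carries coagulation factor V. Mmrn1 measured 74.0 and 158 CPM in NHD13 against 1227 and 1489 CPM in WT. Both WT libraries placed it among the most abundant transcripts, with a WT mean above that of 99.6 percent of genes tested, and the groups were far from overlapping. It fell by 3.55 ± 0.40 (SE) on the log2 scale with an adjusted p of 0.0260, so its NHD13 level was 0.0854 of the WT level. The NHD13 libraries also differed from each other, library 2 being 2.13 times library 1, a ratio larger than that of 90.3 percent of genes tested. Leaving out NHD13 library 1 gave a log2 fold change of -3.10 and leaving out NHD13 library 2 gave -4.19, both called. Without a filter on low counts the adjusted p was 0.0847, and with the crossed replicate numbers as a block it was 0.0524.

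Vwf encodes von Willebrand factor, the adhesive ligand that tethers platelets to a damaged vessel wall. It stood at 98.3 and 257 CPM in NHD13 against 223 and 217 CPM in WT. The WT libraries were nearly equal, while NHD13 library 1 lay below both of them and NHD13 library 2 above both. The ratio between the NHD13 libraries, 2.62, exceeded that of 93.3 percent of genes tested. The log2 fold change was -0.31 ± 0.44 with an adjusted p of 0.705. Its sign and call rested on single libraries, since it was 0.24 (adjusted p 0.331) without NHD13 library 1 and -1.15 (adjusted p 0.0254) without NHD13 library 2.

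Pf4 encodes platelet factor 4, an alpha granule chemokine that also acts on stem cells in the mouse marrow. It had 90.5 and 112 CPM in NHD13 against 57.2 and 30.8 CPM in WT. Both NHD13 libraries were above both WT libraries, which themselves differed 1.85 times. The log2 fold change of 1.20 ± 0.31 did not pass the test (adjusted p 0.0991), though DESeq2 called it higher (adjusted p 0.00106). The neighbouring gene Ppbp, which encodes the related granule chemokine precursor, had a log2 fold change of 1.15 ± 0.29 at a far lower level, 6.02 and 5.80 CPM in NHD13 and 2.92 and 2.41 CPM in WT (adjusted p 0.0927).

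Selp encodes P-selectin, which moves from the granule membrane to the cell surface on activation and binds leukocytes. It stood at 104 and 160 CPM in NHD13 against 98.5 and 74.4 CPM in WT. NHD13 library 1 and WT library 1 were close to each other, and the groups did not overlap. Its log2 fold change was 0.61 ± 0.25 (adjusted p 0.203), 0.90 without NHD13 library 1 and 0.28 without NHD13 library 2.

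The receptor for von Willebrand factor is a complex of the products of Gp1ba, Gp1bb, Gp9 and Gp5, in which the Gp9 product stabilises the others at the surface. Gp9 measured 21.3 and 24.3 CPM in NHD13 against 44.8 and 49.5 CPM in WT. The libraries within each group were close, and Gp9 fell by 1.05 ± 0.14 on the log2 scale (adjusted p 0.0334), to 0.484 of the WT level. Without NHD13 library 1 it missed the threshold (-0.95, adjusted p 0.0925), and it was also missed with the replicate number as a block (adjusted p 0.0786). Gp1bb was near the limit of detection, with 42 and 44 counts in NHD13 and 49 and 59 in WT. Its groups overlapped, at 1.22 and 0.898 CPM in NHD13 and 1.13 and 1.61 CPM in WT (log2 fold change -0.37 ± 0.48, adjusted p 0.664). The Gp1bb gene overlaps Sept5 in the RefSeq annotation of GRCm38.p6, so reads of Gp1bb and Sept5 may not be fully separated. The pair of listed Gp1bb transcripts had identical counts. Of the partners, Gp5 had a log2 fold change of 0.74 ± 0.41 (adjusted p 0.316), with 10.5 and 5.08 CPM in NHD13 and 4.25 and 5.06 CPM in WT, and Gp1ba had -0.10 ± 0.34 (adjusted p 0.883). Gp9 was the 1 gene called among the 4 genes of the complex, and the differences between these genes were not tested.

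Itga2b encodes integrin alpha IIb (CD41), which pairs with integrin beta 3 from Itgb3 to form the fibrinogen receptor. It had 165 and 68.1 CPM in NHD13 against 118 and 98.7 CPM in WT. NHD13 library 1 was the highest of the 4 libraries and NHD13 library 2 the lowest, the reverse of the order seen for Vwf. The log2 fold change was 0.10 ± 0.42 (adjusted p 0.901). Leaving out NHD13 library 1 gave -0.66, leaving out NHD13 library 2 gave 0.61 and leaving out WT library 2 gave -0.02, and it was also below 0 by limma-voom and with the replicate block. Itgb3 stood at 25.0 and 45.0 CPM in NHD13 against 74.2 and 70.6 CPM in WT. This log2 fold change of -1.05 ± 0.29 did not pass edgeR's test (adjusted p 0.106), but did by DESeq2 (adjusted p 0.00339) and without NHD13 library 2 (-1.53, adjusted p 0.0232).

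F2r encodes the thrombin receptor PAR1; in mice platelets sense thrombin mainly through the products of F2rl2 and F2rl3, and F2r is known from other cells such as endothelium. It measured 338 and 406 CPM in NHD13 against 166 and 157 CPM in WT. Libraries were close within each group and the groups were clearly apart. F2r rose by 1.21 ± 0.12 on the log2 scale (adjusted p 0.0195), 2.31 times the WT level, with 1.34 without NHD13 library 1 and 1.07 without NHD13 library 2. With the replicate number as a block its adjusted p was 0.0637. F2rl3, for PAR4, had 26.3 and 38.2 CPM in NHD13 against 62.3 and 80.1 CPM in WT (log2 fold change -1.14 ± 0.23, adjusted p 0.0641, called lower by DESeq2 at 9.03e-05 and with no filter at 0.0435). F2rl2, for PAR3, stood at 27.7 and 11.7 CPM in NHD13 against 8.69 and 7.03 CPM in WT (1.32 ± 0.44, adjusted p 0.148, called higher by DESeq2 at 0.0265).

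Sdpr, now also named Cavin2, encodes a protein that shapes caveolae, the flask-like pits of the cell membrane, and binds phosphatidylserine. It measured 34.4 and 55.4 CPM in NHD13 against 218 and 249 CPM in WT. Every NHD13 value was far below every WT value, and Sdpr fell by 2.38 ± 0.25 on the log2 scale (adjusted p 0.0228), to 0.192 of the WT level. Leaving out NHD13 library 1 gave -2.07 and leaving out NHD13 library 2 gave -2.76, both called.

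Nfe2 encodes the p45 subunit of NF-E2, the transcription factor that megakaryocytes need to release platelets. It had 276 and 313 CPM in NHD13 against 316 and 382 CPM in WT. The groups did not overlap, but NHD13 library 2 and WT library 1 nearly touched. The log2 fold change was -0.25 ± 0.13 (adjusted p 0.302).

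For the 4 called genes, leaving out WT library 1 or WT library 2 ended the call by edgeR, with adjusted p between 0.154 and 0.201, while the direction held. In each of these fits, which called 0 genes of all tested, 2332 genes without WT library 1 and 2605 without WT library 2 had an unadjusted p under 0.05, the 4 called genes and Pf4 among them.

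**Figure D2:**
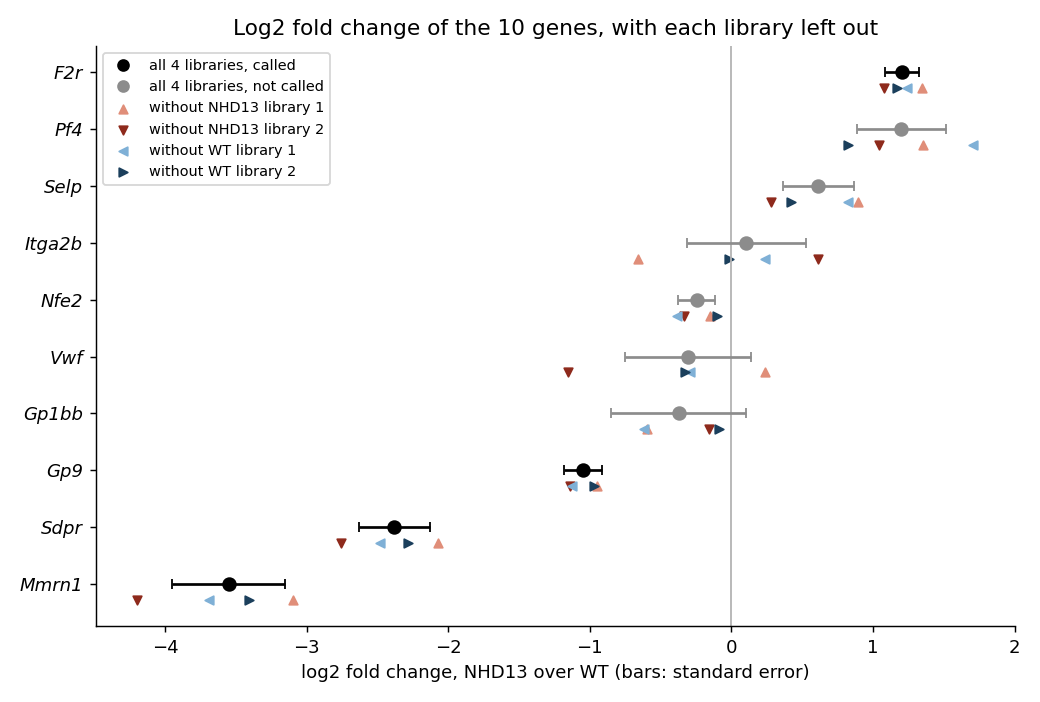
Log2 fold change (NHD13 over WT) of the 10 genes with its standard error over all 4 libraries (circles, black where called), and below each circle the values with 1 library left out (triangles). Mmrn1, Sdpr, Gp9 and F2r keep their sign in every fit, while Itga2b and Vwf lie on both sides of 0 depending on which NHD13 library is left out.

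Levels of different genes were compared as CPM per kilobase of transcript, with the length of the GENCODE transcript that carries the same RefSeq accession. In NHD13, Nfe2 (162 and 184) and Pf4 (154 and 190) stood highest and overlapped, followed by F2r (101 and 122). Itga2b (48.1 and 19.8), Selp (30.4 and 46.5), Gp9 (24.2 and 27.6), Mmrn1 (16.5 and 35.3) and Vwf (11.1 and 29.1) formed an overlapping middle group, with Sdpr (11.3 and 18.1) at its lower edge. In WT, Mmrn1 led with 274 and 333 CPM per kilobase, above Nfe2 (186 and 225), and Pf4 had 97.3 and 52.5. Sdpr (71.5 and 81.6), Gp9 (50.8 and 56.2), F2r (49.7 and 47.1), Itga2b (34.4 and 28.7) and then Selp (28.7 and 21.6) beside Vwf (25.2 and 24.5) followed. The Pf4 values spanned those of Sdpr and overlapped those of Gp9, and Selp overlapped Vwf. Gp1bb was lowest in all 4 libraries, at 0.586 and 0.431 CPM per kilobase in NHD13 and 0.540 and 0.775 in WT. Among the 10 genes Mmrn1 thus stood first in WT and below Nfe2, Pf4 and F2r in NHD13.

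The upstream sequences of the called genes Gp9, Sdpr and F2r are shown because these 3 genes moved in different directions, and that of Itga2b, which did not pass the test, is set beside them. Each line gives the 250 bases before the annotated gene start, 5′ to 3′ on the strand of the gene, from RefSeq on GRCm38.p6, with matches to the searched motifs in capitals. They lie at chr6:87777820-87778069 (plus strand), chr1:51288876-51289125 (plus strand), chr13:95618467-95618716 (minus strand) and chr11:102469884-102470133 (minus strand).
Gp9: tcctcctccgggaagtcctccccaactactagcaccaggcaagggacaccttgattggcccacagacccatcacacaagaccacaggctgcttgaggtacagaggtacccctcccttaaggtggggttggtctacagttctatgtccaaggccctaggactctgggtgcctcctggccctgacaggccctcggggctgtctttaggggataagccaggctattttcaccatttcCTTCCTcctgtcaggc
Sdpr: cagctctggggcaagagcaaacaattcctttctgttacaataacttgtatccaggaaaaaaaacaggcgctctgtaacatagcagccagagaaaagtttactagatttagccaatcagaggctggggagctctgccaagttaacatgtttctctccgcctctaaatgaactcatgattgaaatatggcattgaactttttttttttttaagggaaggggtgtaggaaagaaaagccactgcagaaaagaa
F2r: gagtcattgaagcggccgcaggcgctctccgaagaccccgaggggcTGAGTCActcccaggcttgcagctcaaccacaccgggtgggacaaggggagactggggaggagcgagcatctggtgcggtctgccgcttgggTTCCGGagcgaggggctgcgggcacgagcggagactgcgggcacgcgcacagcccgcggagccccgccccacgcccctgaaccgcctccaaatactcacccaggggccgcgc
Itga2b: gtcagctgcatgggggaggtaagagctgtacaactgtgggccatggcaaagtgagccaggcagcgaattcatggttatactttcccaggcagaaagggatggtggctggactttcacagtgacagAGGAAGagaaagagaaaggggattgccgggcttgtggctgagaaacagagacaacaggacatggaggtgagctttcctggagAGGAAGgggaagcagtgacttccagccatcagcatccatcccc

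Windows of 250 bases before to 50 bases after the start were found for 8 of the 10 genes, and were searched on both strands for AGATAA and TGATAA (bound by GATA factors), CCGGAA and AGGAAG (bound by ETS factors such as Fli1) and TGACTCA or TGAGTCA (bound by NF-E2 and AP-1). No 2 of the matches found in these windows overlap. AGGAAG was present in 6 of the 8 windows, those of Pf4, Selp, Gp1bb, Gp9, Itga2b and Sdpr, and in 35.4 percent of 32851 windows of that length. The Gp9 match begins 16 bases before the start and that of Itga2b nearest the start 43 bases before it, whereas the Sdpr match lies after the start, outside the bases shown. CCGGAA was in the windows of F2r and Pf4 (14.9 percent of all windows), and the NF-E2 motif was in that of F2r alone among the 8 (5.2 percent). AGATAA was in the Pf4 window (11.2 percent of all) and TGATAA in the Mmrn1 window (9.05 percent). The Mmrn1 window is not shown because the bases after its start were not found in the transcript matched to the counted accession. The F2r stretch had a GC content of 70.8 percent, against 40.4 percent for Sdpr. A match of letters describes a sequence and does not show that a factor binds there.

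The genes flanking the 10 on GRCm38.p6 were examined next. Of 20 flanking protein-coding genes 17 were tested, and 3 fell and 0 rose by edgeR, where 2.22 and 2.07 percent of all genes tested did. They were F5, next to Selp, Efcc1, next to Gp9, and Iqgap2, next to F2r. Iqgap2, which encodes a scaffold protein of the cytoskeleton, stood at 69.8 and 64.7 CPM in NHD13 against 157 and 164 CPM in WT, a log2 fold change of -1.25 ± 0.10 (adjusted p 0.0123) beside the rise of F2r. Efcc1 fell by 1.55 ± 0.24 (adjusted p 0.0440), but missed the threshold with library totals only (0.0519), summed transcripts (0.0570), crossed replicate numbers (0.0549) and without NHD13 library 1 (0.0901). Ccser1, beside Mmrn1, was low, with 0.669 and 1.35 CPM in NHD13 against 5.22 and 5.01 CPM in WT (-2.33 ± 0.46, adjusted p 0.0626). It was not called with the default filter on all 4 libraries, though it was with no filter (adjusted p 0.0317) and without NHD13 library 2 (0.0453). F5, Efcc1 and Iqgap2 were not called without WT library 1 or WT library 2, with adjusted p of 0.123 to 0.227.

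Likeness between patterns was measured as the root mean square difference of log2 CPM, each gene centred on its own mean over the 4 libraries, as a description of 4 values. The genes closest to Mmrn1 were Faxc (0.107), Aldh1a1 (0.179) and Klhl13 (0.182). Aldh1a1, an aldehyde dehydrogenase gene of stem cells, measured 5.62 and 10.5 CPM in NHD13 against 114 and 129 CPM in WT. Closest to Vwf were Tmem86a (0.0803), Nrarp (0.101) and Dennd2a (0.101), all under 10 CPM. Nrarp, a feedback regulator of Notch signalling, was at 1.25 and 3.69 CPM in NHD13 and 3.38 and 2.76 CPM in WT, low in NHD13 library 1 as Vwf was. Closest to F2r were Ccl5 (0.0556), Klhl25 (0.0582) and P2ry14 (0.0748), a receptor gene for UDP-sugars with 32.8 and 36.9 CPM in NHD13 against 15.4 and 13.2 CPM in WT.

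A wider list of 116 further platelet, caveola and age-linked stem cell genes was examined by role. Of 111 tested, 12 fell and 6 rose by edgeR, beside the background of 2.22 and 2.07 percent, and the median log2 fold change was -0.03, against 0.00 over all genes. The same background holds for the edgeR counts of each role that follow. Without NHD13 library 1 the counts were 9 and 1, and without NHD13 library 2 they were 19 and 18. With either WT library left out, edgeR called 0 of them, where 21 lower and 11 higher genes without WT library 1, and 24 and 11 without WT library 2, had an unadjusted p under 0.05.

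Granule cargo and biogenesis genes went both ways, 3 lower and 1 higher of 18, where 2.22 and 2.07 percent of all genes tested did. F5, the coagulation factor V gene whose product multimerin 1 carries, had 2.97 and 2.41 CPM in NHD13 against 13.8 and 14.3 CPM in WT and fell by 2.39 ± 0.23 (adjusted p 0.0193). Rab27b, a GTPase gene for granule release, fell by 1.53 ± 0.20 and Cd63, a tetraspanin gene of granule membranes, by 0.78 ± 0.09. Nbeal2, needed to build alpha granules, rose by 0.63 ± 0.10, with 93.2 and 103 CPM in NHD13 against 61.9 and 65.2 CPM in WT (adjusted p 0.0465). Nbeal2 was not called with library totals only (adjusted p 0.0543), summed transcripts (0.0596) or crossed replicate numbers (0.0598), or when any 1 library was left out (0.0709 to 0.261), and Cd63 was not called without NHD13 library 1 (0.0603).

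Among 17 signalling and cytoskeleton genes 3 rose and 1 fell, where 2.07 and 2.22 percent of all genes tested did. Fermt3, the kindlin that activates integrins, stood at 734 and 689 CPM in NHD13 against 470 and 470 CPM in WT (0.60 ± 0.08, adjusted p 0.0362). Flna, for the actin cross-linker filamin A, rose by 0.69 ± 0.08 and the adaptor gene Lat by 0.68 ± 0.09. Tbxas1, which encodes thromboxane synthase, measured 105 and 88.5 CPM in NHD13 against 331 and 419 CPM in WT and fell by 1.96 ± 0.16 (adjusted p 0.0141). Fermt3, Flna and Lat were not called without NHD13 library 1 (adjusted p 0.0964, 0.0699 and 0.0934), and Fermt3 also not with summed transcripts (0.0513).

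Of 11 genes of receptors for thrombin, ADP and thromboxane and of their signalling 1 was called. Gng11, a G protein gamma subunit gene, fell by 1.63 ± 0.27 (adjusted p 0.0489) and missed the threshold under 8 of the 14 alternatives, namely with library totals only (0.0612), no filter, no robust fit, summed transcripts, either replicate block and either WT library left out (0.0524 to 0.238). Of the 7 integrin and collagen receptor genes tested none was called by edgeR, with 4 at an unadjusted p under 0.05 (26.8 percent of all genes). DESeq2 called 1 higher and 3 lower (17.5 percent of all genes in either direction), and limma-voom called 0 (4.17 percent). The smallest p was that of Clec1b, for the podoplanin receptor CLEC-2, with 0.728 and 0.796 CPM in NHD13 against 4.60 and 2.85 CPM in WT (-2.28 ± 0.43, adjusted p 0.0599, and 0.0399 without a filter).

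Of 13 megakaryocyte transcription factor genes Fli1 was the 1 called. Fli1, an ETS factor, had 243 and 235 CPM in NHD13 against 388 and 442 CPM in WT and fell by 0.80 ± 0.10 (adjusted p 0.0319; 0.0594 to 0.185 when any 1 library was left out). Gata1, the master factor of the megakaryocyte and erythroid branches, stood at 64.8 and 24.0 CPM in NHD13 against 17.6 and 22.5 CPM in WT (1.15 ± 0.48, adjusted p 0.213). In the family of Nfe2 and its Maf partners 1 of 8 was called: Nfe2l2, for the stress factor Nrf2, fell by 0.71 ± 0.10 (adjusted p 0.0380; 0.0556 to 0.204 when any 1 library was left out).

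Thrombopoietin is the hormone that both maintains stem cells and drives megakaryocytes. Of the 7 genes of its signalling tested, the kinase gene Tyk2 was the 1 called, at 78.1 and 71.6 CPM in NHD13 against 45.9 and 45.6 CPM in WT (0.71 ± 0.10, adjusted p 0.0381; 0.107 without NHD13 library 1). Among 7 selectin and ligand genes Fut7, the fucosyltransferase that completes selectin ligands, rose by 1.59 ± 0.20 (adjusted p 0.0319; 0.0879 without NHD13 library 1), while Selplg, for the P-selectin ligand itself, had -0.03 ± 0.12.

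Of 5 further caveola genes tested 1 fell and 0 rose. Ptrf, which encodes cavin 1, had 73.4 and 148 CPM in NHD13 against 511 and 445 CPM in WT, and fell by 2.11 ± 0.35 (adjusted p 0.0471). It missed the threshold under 7 of the 14 alternatives, namely with library totals only (adjusted p 0.0602), no filter (0.127), no robust fit, summed transcripts, the replicate block and either WT library left out (0.0507 to 0.244), and the list's median log2 fold change was -1.01. In the age-linked list, 4 of 16 genes fell and 0 rose, where 2.22 and 2.07 percent of all genes tested did. The log2 fold changes were -3.90 ± 0.33 for Aldh1a1, -3.03 ± 0.21 for Cd38, -1.73 ± 0.24 for Alcam and -1.49 ± 0.14 for Clca1. Cd38, an ecto-enzyme gene, stood at 7.83 and 11.3 CPM in NHD13 against 78.4 and 78.8 CPM in WT (adjusted p 0.00999). Alcam was not called without NHD13 library 1 (adjusted p 0.0718). Nupr1, on the same list, was at 216 and 91.7 CPM in NHD13 and 116 and 144 CPM in WT (0.24 ± 0.41, adjusted p 0.746).

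**Figure D3:**
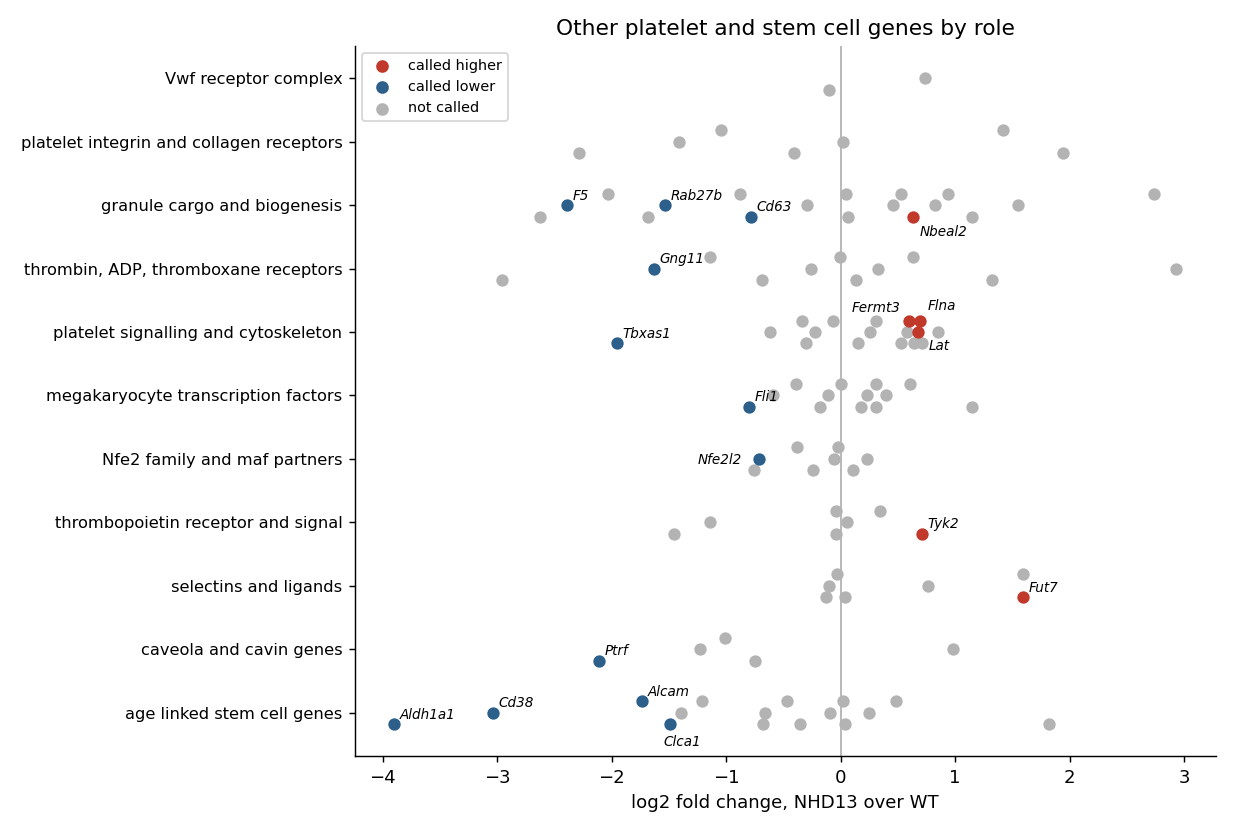
Log2 fold change (NHD13 over WT) of the tested genes of the wider list, 1 row per role and 1 point per gene; red points were called higher, blue points lower and grey points not called by edgeR, and vertical offsets within a row only separate points. Named genes are the 18 called, 12 lower and 6 higher, and both sides of 0 are filled in most rows.

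Marker lists of other cell types were summed in each library to stand beside these results. Endothelial markers summed to 434 and 728 CPM in NHD13 against 1045 and 1027 CPM in WT; 12 of 16 tested lay below WT in both NHD13 libraries and 2 above, where 30.3 and 30.1 percent of all genes did, and edgeR called none. By unadjusted p under 0.05 there were 7 (26.8 percent of all genes), while DESeq2 called 7 lower (17.5 percent of all genes in either direction) and limma-voom called 1 (4.17 percent). In the endothelial list, Esam had 27.04 and 66.3 CPM in NHD13 against 210 and 214 CPM in WT (log2 fold change -2.18). Tie1 had 56.7 and 132 CPM against 177 and 174 CPM (-0.89). Emcn had 10.1 and 23.9 CPM against 54.7 and 56.2 CPM (-1.70), and Robo4 had 14.3 and 31.4 CPM against 59.2 and 65.0 CPM (-1.44). Eng had 97.5 and 177 CPM against 244 and 208 CPM (-0.72), and Tek had 56.3 and 86.2 CPM against 116 and 122 CPM (-0.74). Egfl7 overlapped between groups, at 84.4 and 102 CPM against 89.2 and 88.6 CPM (0.07). Of the 16 tested, 4 lay above 0, namely Egfl7, Pecam1, Plvap and Sele. Esam also stands on the stem cell list. Esam, Tie1, Emcn, Robo4, Eng, Tek and Egfl7 were each lower in NHD13 library 1 than in NHD13 library 2. On the same list Plvap (3.03 and 1.90 CPM), Flt4 (0.291 and 0.163 CPM) and Stab2 (0.262 and 0.102 CPM) had the reverse order. All of the 10 genes except Gp1bb and Itga2b were also lower in NHD13 library 1, including F2r, Pf4 and Selp, whose log2 fold changes lay above 0. The share of all genes tested with that order was not measured, so nothing is read from it. Of the defining genes, Cdh5 was near 0 throughout, with 1 and 14 counts in NHD13 and 14 and 16 in WT, Kdr measured 1.95 and 6.53 CPM in NHD13 against 11.6 and 13.1 CPM in WT, and Pecam1, also active in stem cells, had 81.1 and 97.8 CPM in NHD13 against 67.5 and 78.4 CPM in WT. Also near 0 in every library were Lyve1 (5 and 4 counts in NHD13, 9 and 1 in WT), Mmrn2 (2 and 3 in NHD13, 10 and 3 in WT) and Stab2 (9 and 5 in NHD13, 19 and 18 in WT). Whether the transcripts of the endothelial list came from endothelial cells or from the stem cells themselves was not tested. The part of endothelial transcripts in the values of the 10 genes was not tested. Markers of maturing megakaryocytes and platelets summed to 128 and 110 CPM in NHD13 against 170 and 182 CPM in WT. Itgb3 and F2rl3, both lower in NHD13, were the most abundant of them in WT. Of the 9 tested, 5 lay below 0 and 4 above, namely Ppbp (1.15), Treml1 (1.55), Gp5 (0.74) and Tubb1 (0.58). edgeR called 0 of the 9, with 4 at an unadjusted p under 0.05 (26.8 percent of all genes). DESeq2 called 1 higher and 3 lower (17.5 percent of all genes in either direction) and limma-voom called 0 (4.17 percent). Gp6 had 2 and 1 counts in NHD13 and 5 and 0 in WT, and Tubb1 was at 8.18 and 2.31 CPM in NHD13 and 2.83 and 4.16 CPM in WT.

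Late granulocyte markers summed to 2857 and 378 CPM in NHD13 against 329 and 284 CPM in WT, so NHD13 library 1 stood apart. S100a8 stood at 640 and 80.1 CPM in NHD13 against 78.7 and 69.9 CPM in WT. Itga2b, Gata1 and P2ry1 were also highest in that library, P2ry1, for an ADP receptor, at 157 and 36.9 CPM in NHD13 against 11.4 and 13.96 CPM in WT (2.93 ± 0.72, adjusted p 0.0938, and called without NHD13 library 2 at 0.0156). Mast cell and basophil markers summed to 140 and 148 CPM in NHD13 against 26.3 and 8.16 CPM in WT, led by Ms4a2 at 111 CPM in NHD13 library 1 and Cpa3 at 107 CPM in NHD13 library 2. The 1 marker of that list that edgeR called went the other way, Fcer1a with 0 and 1 counts in NHD13 against 40 and 62 counts in WT (adjusted p 0.0444), and 3 of the 6 tested had a log2 fold change below 0. Macrophage and monocyte markers summed to 128 and 61.8 CPM in NHD13 against 31.2 and 26.0 CPM in WT, and lymphocyte markers to 275 and 297 CPM in NHD13 against 136 and 147 CPM in WT. Of 9 macrophage and monocyte markers tested, edgeR called Cd68 higher (adjusted p 0.0151), and 3 lay below 0. Of 11 lymphocyte markers tested, it called Nkg7 and Cd79a higher (0.0293 and 0.0454), and 4 lay below 0. In both lists 0 were called lower, where 2.07 percent of all genes tested rose and 2.22 percent fell. Of the lymphocyte sums, Nkg7 gave 153 and 82.2 CPM in NHD13 against 18.9 and 18.04 CPM in WT. Cd3e and Cd3g gave 36.3 and 30.8 CPM in NHD13 library 2 and no more than 1.02 CPM in any other library. Other T cell markers of the list did not follow them. In NHD13 library 2 Cd3d had 0.633 CPM, against 0.736 and 0.520 CPM in WT. Cd4 had 1.69 CPM there, against 2.51 and 1.81 CPM in WT, and Cd8a had 5 counts. Erythroid markers summed to 1985 and 2811 CPM in NHD13 against 3895 and 4403 CPM in WT, with Klf1 at 13.8 and 11.1 CPM in NHD13 against 6.28 and 7.03 CPM in WT. Stem cell markers summed to 2749 and 3133 CPM in NHD13 against 4601 and 4788 CPM in WT. Of 14 tested, edgeR called 5 lower and 0 higher, where it called 2.22 and 2.07 percent of all genes tested. The part of these cell types in the values of the 10 genes was not tested.

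**Figure D4:**
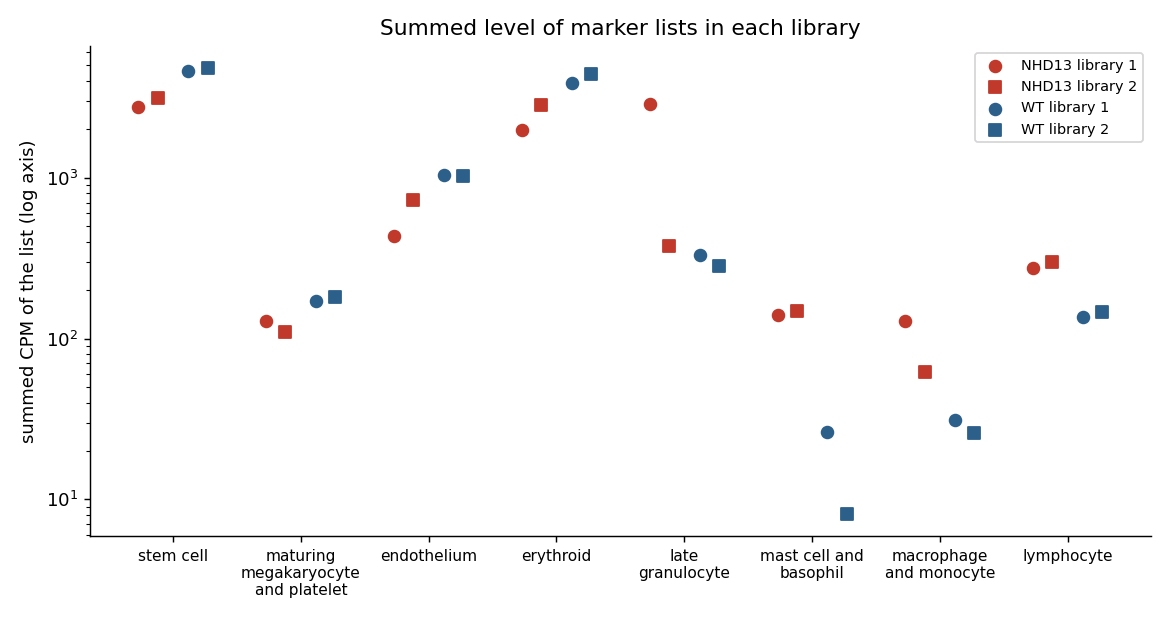
Summed CPM of marker lists in each library on a log axis, NHD13 libraries (red) left of WT libraries (blue), circles for library 1 and squares for library 2. Endothelial markers are lower in both NHD13 libraries (434 and 728 CPM, against 1045 and 1027 CPM in WT), and late granulocyte markers stand high in NHD13 library 1 (2857 CPM). Which cells gave the transcripts of a list was not tested.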

How the data were processed

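Per the labels' protocols, Trizol RNA was amplified by SMARTer chemistry before paired-end sequencing. The submitters' processing notes name Bowtie 0.12.2 and mm9. The counting program, its strand setting and its treatment of multiply aligned reads were not given in the sources used here. The deposited values are raw counts per RefSeq transcript, 33018 in each of 4 tables. The transcript with the highest total represented each of 24016 symbols. edgeR 4.0.16 (R 4.3.3) was run with its default filter on low counts, TMM scaling and the quasi-likelihood test (robust), NHD13 over WT, adjusted by Benjamini-Hochberg over 14853 genes, and called at 0.05. CPM use TMM-scaled totals, and a standard error is the log2 fold change divided by the square root of F. The test was run on counts simulated from the spread that edgeR itself had fitted, so that check does not measure how well the calls hold in other libraries. Gene neighbours, transcript lengths and promoter windows come from annotations of GRCm38, not from the build of the counts.

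Members, lists and the rule for named genes were chosen with earlier results of these data known: all members, every called gene of a list or else the smallest p, and stated markers. Flanking genes, Gp1ba, F2rl2, F2rl3, Gata1, P2ry1, Selplg, Nupr1 and markers beyond the stated ones were chosen after their values were seen. A few genes are not reported here. DESeq2 1.42.0 and limma-voom (limma 3.58.1) were alternatives, beside other scalings, filters, thresholds and blocks; a block of crossed replicate numbers was chosen after seeing the data.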

Additional observations from a re-analysis of the deposited data

How the results depend on the processing

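Gp1bb had 42 to 59 counts per library, which limits what its values can show, and why its counts were low was not tested. The 3 genes lower and 1 higher among the 10 were 0 and 0 at an adjusted p under 0.01 (edgeR, with 3 and 2 at an unadjusted p under 0.05), 2 were higher at 0.1 and 2 were higher by DESeq2. Leaving out 1 library gave 0 to 4 lower and 0 to 1 higher. No direction of a called gene among the 10 changed under any of the 14 alternatives run, while the sign of Itga2b changed under 5 of them and that of Vwf under 1. Over all genes 636 were called, 1138 with no filter, 1066 with 1 CPM in both libraries of a group, 2604 by DESeq2, 402 with summed transcripts, 47 at 0.01, 1923 at 0.1 and 0 to 990 with 1 library left out. The wider list had 10 lower and 4 higher with summed transcripts, and of its 18 called genes all but Aldh1a1 and Cd38 missed the threshold with the replicate block. In that list 25 were lower and 20 higher by DESeq2, 1 and 0 at 0.01 (23 of those above 0 at an unadjusted p under 0.05), 21 and 11 at 0.1, and 0 to 19 lower and 0 to 18 higher with 1 library left out. The cause of these changes was not tested.

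Nothing in the labels pairs the libraries, and deviations of libraries with the same replicate number correlated at -0.206 over genes. With the replicate number as a block edgeR called 107 genes, 2 of the 10 lower and 0 higher (2 at an unadjusted p under 0.05; 61.7 percent of all calls were higher, against 48.3 percent without the block), and 2 lower and 0 higher in the wider list (22 at an unadjusted p under 0.05). With crossed numbers as the block, tried after seeing the data, it called 647 genes, 2 of the 10 lower and 2 higher.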
